A study of Homo sapiens with 6 samples.

Results

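The mRNAs of the nuclear pore and of its transport receptors were examined in HEK293T, an established line of transformed human embryonic kidney cells, for their recovery with phosphorylated UPF1 (p-UPF1). Members were the rows of the deposited count table whose symbols begin with NUP, KPNA, KPNB, IPO or XPO followed by a number (or are XPOT), together with TPR, RANBP2, RAE1, AAAS, SEH1L, TNPO1, TNPO3, NXF1 and NXT1. Symbols ending in P plus a digit were left out as pseudogene names (IPO5P1 and NUP210P1), whereas RANBP2, which also ends that way, was named outright and kept. This gave 54 of 26364 rows, of which 48 had enough counts to be tested. All cells had received 200 nM okadaic acid, an inhibitor of the phosphatases that act on UPF1, for 3 h, so both groups carry the drug and no untreated group is analysed here. In total 3 libraries came from the immunoprecipitation with an antibody against p-UPF1, called IP from here on (replicates 3, 6 and 9), and 3 were titled pre-IP (replicates 1, 4 and 7). Because the latter carry a rabbit IgG label in place of an antibody, whether they hold input material or a control precipitation is unclear, and nothing in the labels says that the replicates came from separate cultures. The p-values therefore set the difference between the groups only against the variation among these libraries, and that variation may be technical.

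Nucleoporins build the pore that spans the nuclear envelope: a Y-shaped scaffold complex and an inner ring hold the ring structure, phenylalanine-glycine repeat proteins fill the channel, filaments face the cytoplasm and a basket faces the nucleoplasm. Importins, transportins and exportins carry proteins and RNAs through it under control of the GTPase Ran, whereas bulk mRNA leaves with NXF1 and its partner NXT1. UPF1 is the helicase of nonsense-mediated mRNA decay (NMD), in which a ribosome that stops at a termination codon judged premature recruits UPF1, and SMG1 phosphorylates it. A junction between exons well downstream of the stop codon is the best known mark of such a transcript, and a long 3′ untranslated region (UTR) is another.

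The stop codons of the 8 members past the test's threshold are shown because termination is where UPF1 acts. Each line gives the last 12 coding bases, the stop codon in capitals and the next 12 bases, 5′ to 3′. Positions are in GRCh38, a later build than the hg19 of the counts, which carry no positions. The reference transcript of a gene, from GENCODE release 29, was taken from those typed protein-coding where any existed. Among these an annotated stop codon came first and then the longest coding sequence.
TPR, chr1:186313959-186313985, minus strand: ggaaatattaatTAAatggtctgtaaa
RANBP2, chr2:108783887-108783913, plus strand: tgtggacagataTAAaatcattgttgt
NUP214, chr9:131233473-131233499, plus strand: ggctggcgaagcTGAgggcgtgtcagc
KPNA1, chr3:122426973-122426999, minus strand: ggtttccagcttTGAagcaatactctg
IPO7, chr11:9445180-9445206, plus strand: ccagggatgaatTGAgttatctctttc
IPO9, chr1:201876040-201876066, plus strand: accatcggcatcTAAaaaggggagcct
NUP37, chr12:102074342-102074368, minus strand: gtgactgaagtaTAAagtgttttctgt
NUP43, chr6:149726957-149726983, minus strand: catcttttttcgTAGaagtactataat
All 8 of these stop codons lie in the last exon of their reference transcript, the first 6 belonging to mRNAs that were higher in IP and the last 2 to mRNAs that were lower. Among the 48 tested members, 0% had a junction more than 50 bases past the stop codon of the reference transcript, against 0.254% of the 7469 protein-coding genes tested. The choice of reference passes over transcripts typed as NMD substrates wherever a protein-coding one exists. Neither the last-exon stop codons nor these shares can therefore show whether mRNAs with such a junction were present. The annotation also lists a transcript typed as an NMD substrate for 31 of the 48 (64.6%), against 46.3% of the tested protein-coding genes. It does so for 4 of the 6 members that were higher (66.7%) and for 27 of the other 42 (64.3%). The comparison with all protein-coding genes was not matched for exon number, whose median was 23 for the tested members and 11 for those genes. The count table does not separate transcripts of a gene, so which of them gave the reads is not known.

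Libraries held 600244 to 1179369 counts in pre-IP and 905926 to 2057647 in IP. The members had 1040 to 3097 counts per pre-IP library and 9386 to 17354 per IP library. Small structured RNAs took 67.9% ± 6.41 (SD, n = 3) of pre-IP counts and 34.5% ± 9.63 of IP counts. Of the HEK293T markers, VIM had 419 counts in pre-IP and 3757 in IP, LIN28B had 43 and 251, HOXA10 had 35 and 165, NEFM had 34 and 87, and PAX2 had 0 and 9. Of the 4 tested, 0 passed the threshold (edgeR; 1 at an unadjusted p under 0.05), and NEFM was the one with a negative log2 fold change (-0.88). The 12 markers of other cell types had 0 to 6 counts per pre-IP library and 7 to 14 per IP library, with 7 of the 12 at 0 in all 6 libraries and COL1A1, a collagen, at 0 and 17. The libraries hold bulk material, so a fold change gives recovery in IP relative to pre-IP. It says nothing of levels per cell or of how many cells hold an mRNA.

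The members took 0.263%, 0.173% and 0.223% of all counts in the pre-IP libraries 1, 4 and 7, against 0.843%, 0.741% and 1.04% in IP replicates 3, 6 and 9. Every IP library was above every pre-IP library, and the mean share was 3.98-fold higher, against 2.05-fold for all protein-coding symbols. As a share of protein-coding counts alone the members took 0.744%, 0.729% and 0.664% in pre-IP and 1.37%, 1.35% and 1.41% in IP, a ratio of 1.93. These are ratios of summed counts, in which abundant genes weigh most, and not the change of a typical gene. With libraries scaled by their totals alone, the median log2 fold change was 2.04 for the tested members and 1.63 for all tested genes. Nucleoporins (3.78-fold) and transport receptors (4.17-fold) rose in share of all counts to similar extents, as a description with no test.

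Gene by gene, on a scale that sets aside this change in composition, 6 of the 48 tested members rose in IP and 2 fell (edgeR quasi-likelihood F-test, TMM scaling, Benjamini-Hochberg adjusted p under 0.05 over 8070 genes). The 6 that rose were the basket protein TPR, the cytoplasmic filament proteins RANBP2 and NUP214, the adaptor KPNA1 and the import receptors IPO7 and IPO9, and the 2 that fell were the Y complex subunits NUP37 and NUP43. The share of members that rose was 12.5%, near the 8.81% of all tested genes and the 9.17% of protein-coding ones. Of all tested genes 10.9% fell, as did 7.87% of protein-coding ones, and 19.7% of all tested genes passed in either direction. With DESeq2 9 members rose and 2 fell, against 7.45% and 8.76% of its 10667 genes. Without RANBP2, whose symbol the naming rule also touches, 5 of 47 rose and 2 fell. The median log2 fold change of the members was 0.47, against 0.10 for all tested genes and 0.15 for protein-coding genes. Above 0 were 35 of 48 members, 4339 of 8070 tested genes and 4174 of 7469 protein-coding ones. In 18 members all 3 IP libraries were above all 3 pre-IP libraries, against 21.9% of all tested genes and 22.8% of protein-coding ones. When libraries were scaled by their totals alone 40 members were higher and 0 lower, as were 60.4% and 1.93% of all tested genes. That scale moved the median of all tested genes from 0.10 to 1.63, so the changes given here are relative to the typical gene.

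**Figure D1:**
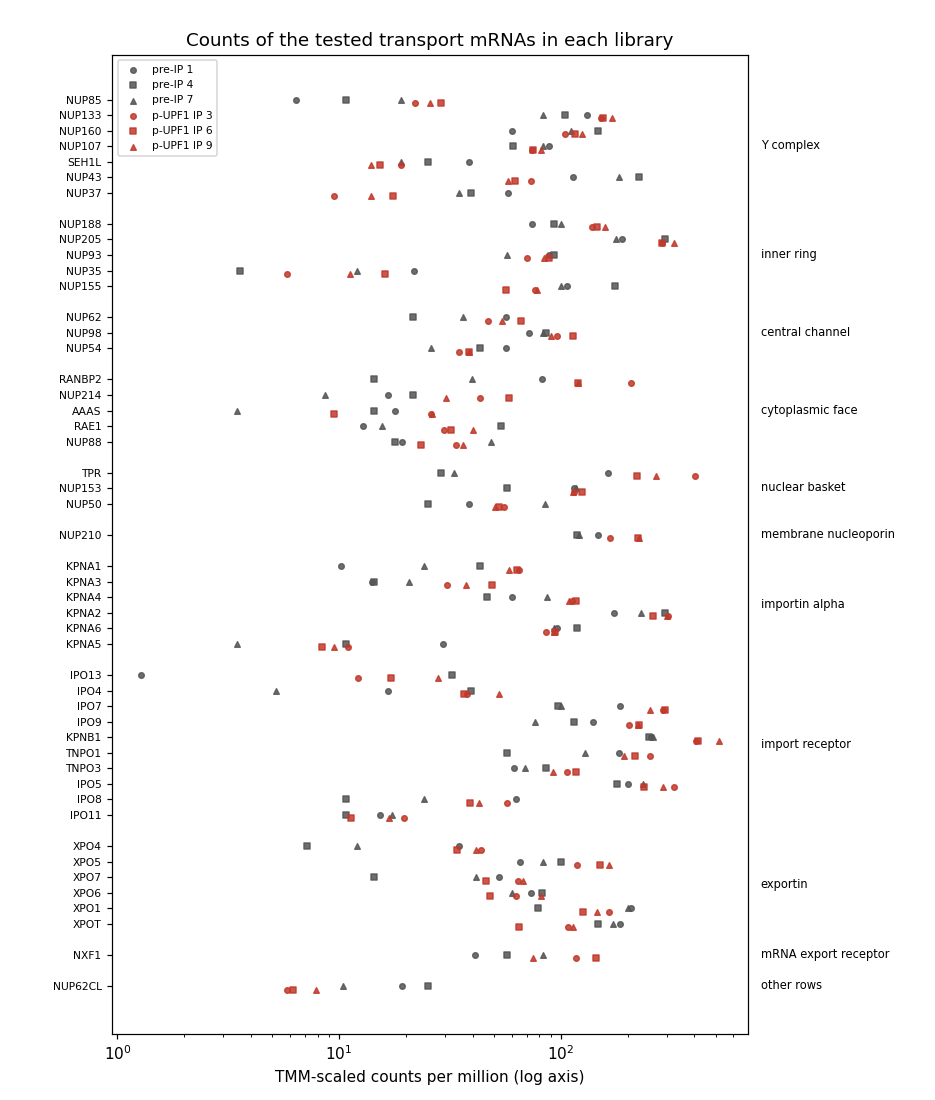
TMM-scaled CPM (log axis) of the 48 tested members in each of the 6 libraries, grouped by role, grey for pre-IP and red for IP, with 1 symbol shape per replicate. IPO13 had 0 counts in pre-IP replicate 7 and lacks that point. Red points lie to the right of all grey ones for TPR, RANBP2, NUP214, KPNA1, IPO7 and IPO9, and to the left for NUP37 and NUP43.

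The nuclear basket and the cytoplasmic face held the members with the highest log2 fold changes. TPR, the coiled-coil scaffold of the basket, had 128, 8 and 19 counts in the pre-IP libraries (replicates 1, 4 and 7) against 1316, 608 and 480 in those of the IP (replicates 3, 6 and 9). In TMM-scaled CPM this was 164, 28.6 and 32.8 against 402, 221 and 268, so that pre-IP replicate 1 lay well above the other pre-IP libraries and yet below every IP library. For TPR the log2 fold change was 1.89 with an SE of 0.48 (adjusted p = 0.0108). The other basket proteins differed by less than the spread between libraries: NUP153, which anchors the basket, had 96.6 ± 34.1 CPM in pre-IP and 117 ± 6.32 in IP (SD, n = 3), a log2 fold change of 0.24 (edgeR adjusted p = 0.628), and NUP50 had the lowest log2 fold change of the class (0.05). RANBP2, the giant protein of the cytoplasmic filaments that binds Ran and acts in SUMO modification, had 81.9, 14.3 and 39.7 CPM in pre-IP and 208, 119 and 119 in IP, with no overlap between groups. It rose by 1.59 (SE 0.42, adjusted p = 0.0130). NUP214, a docking site for export complexes, had only 13, 6 and 5 counts in pre-IP and 141, 161 and 54 in IP. It rose by 1.56 (SE 0.48, adjusted p = 0.0299), again without overlap. The remaining 3 of this class did not pass the test, among them the mRNA export factor RAE1 (0.50, adjusted p = 0.537) and AAAS (0.78, adjusted p = 0.441), both with overlapping libraries, and NUP88 had the lowest value of the class (0.09).

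RANBP2 has close copies in the genome, the RGPD genes, and a short stretch of exon 20 shows how little can separate their reads. It lies at chr2:108766254-108766328 on the plus strand in RANBP2 and at chr2:106425103-106425177 on the minus strand in RGPD3, also exon 20 (GRCh38), and capitals mark the 3 bases of 75 that differ.
RANBP2: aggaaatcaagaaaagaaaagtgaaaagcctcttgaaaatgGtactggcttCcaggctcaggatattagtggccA
RGPD3: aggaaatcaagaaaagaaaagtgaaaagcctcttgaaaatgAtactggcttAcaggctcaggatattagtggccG
A read from the first 41 bases would match both genes. Over the whole RANBP2 reference transcript, 32.2% of 30-base words also occur in transcripts of another gene, 26.3% in RGPD3. The 8 RGPD symbols of the table, an antisense row included, had 0 counts in pre-IP and 1 in IP, against 91 and 1222 for RANBP2. How reads with several matches were treated is not given in the sources used here, so the RANBP2 value is uncertain to that extent. IPO7 shared 24.7% of its words with other genes, and the other 4 risers at most 4.76%. IPO4 shared 95.1%, with a gene annotated over it.

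The Y complex, in which all subunits stand in fixed numbers within the pore, was spread over both directions at the mRNA level. NUP43, a small beta-propeller subunit, had 114, 226 and 183 CPM in pre-IP and 73.3, 61.9 and 57.6 in IP. It fell by 1.41 (SE 0.31, adjusted p = 0.00434), and all IP libraries were below all pre-IP libraries. NUP37, another propeller subunit, had 57.6, 39.4 and 34.6 CPM in pre-IP and 9.47, 17.5 and 13.98 in IP. It fell by 1.71 (SE 0.45, adjusted p = 0.0138), also without overlap. These decreases are relative to other genes: with library totals alone NUP43 was at 0.17 and NUP37 at -0.19, neither past the threshold. NUP37 also missed it without pre-IP replicate 1 (-1.42, adjusted p = 0.0701), IP replicate 3 (-1.49, 0.0876) or IP replicate 9 (-1.71, 0.0624). SEH1L, another small propeller, was at -0.79 on the log2 scale (adjusted p = 0.274) with IP libraries just below the pre-IP ones. The large scaffold subunits NUP107, NUP160 and NUP133 had log2 fold changes of -0.04, 0.16 and 0.58, and NUP85 was at 1.09 on 19 counts in pre-IP (adjusted p = 0.182). Of its 7 members 0 rose and 2 fell, against 8.81% and 10.9% of all tested genes. The reference transcripts of NUP37, NUP43 and SEH1L have coding sequences of 981, 1143 and 1266 bases, and those of NUP107, NUP133 and NUP160 of 2778, 3471 and 4311. NUP85 has one of 1971 bases. The subunits SEC13 and AHCTF1 fall outside the symbol rule. SEC13, with 1107 coding bases, was at -0.25 (edgeR adjusted p = 0.636) with overlapping groups. AHCTF1, with 6906, was at 1.25 (adjusted p = 0.145) with IP libraries just above the pre-IP ones. Exons of NUP43 overlap those of PCMT1 on the opposite strand (143 counts in pre-IP and 438 in IP). Without a stated strand setting, reads from the overlapping stretch cannot be told apart. Other members with such overlaps include NUP88 (RABEP1, 109 and 552), XPO5 (POLR1C, 64 and 178), NUP62 (ATF5, 15 and 131) and NUP188 (SH3GLB2, 7 and 94). IPO11 overlaps KIF2A (29 and 208) on the same strand.

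In the inner ring, the channel and the membrane no member passed the test, against 19.7% of all tested genes. With so few genes in each this says little of the classes. NUP205, one of the large inner-ring scaffolds and the most counted of them, had 220 ± 63.7 CPM in pre-IP and 299 ± 20.3 in IP (0.45, edgeR adjusted p = 0.313), and its groups overlapped. NUP188, its paralog, had 74.2, 93.1 and 100.2 CPM against 138, 146 and 158, which do not overlap (0.73, adjusted p = 0.0793), and it passed with DESeq2 (0.83, adjusted p = 0.0355). NUP155, which links the ring to the membrane, lay on the other side with 106, 175 and 100.2 CPM against 76.4, 56.8 and 78.3 (-0.82, adjusted p = 0.0741). The direction of NUP155 depended on the scaling, being 0.78 with library totals alone, and it passed with a minimum count of 30 (-0.91, adjusted p = 0.0377). The remaining inner-ring members, NUP93 and NUP35, lay between -0.33 and 0.04. Of the channel proteins, NUP62 had a log2 fold change of 0.47 and NUP98 one of 0.33 (adjusted p = 0.407 and 0.457), and NUP54 had the lowest value of the class at -0.17. NUP210, a membrane nucleoporin, had 129 ± 16.0 and 204 ± 32.3 CPM (0.66, edgeR adjusted p = 0.114), with every IP library above every pre-IP library.

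**Figure D2:**
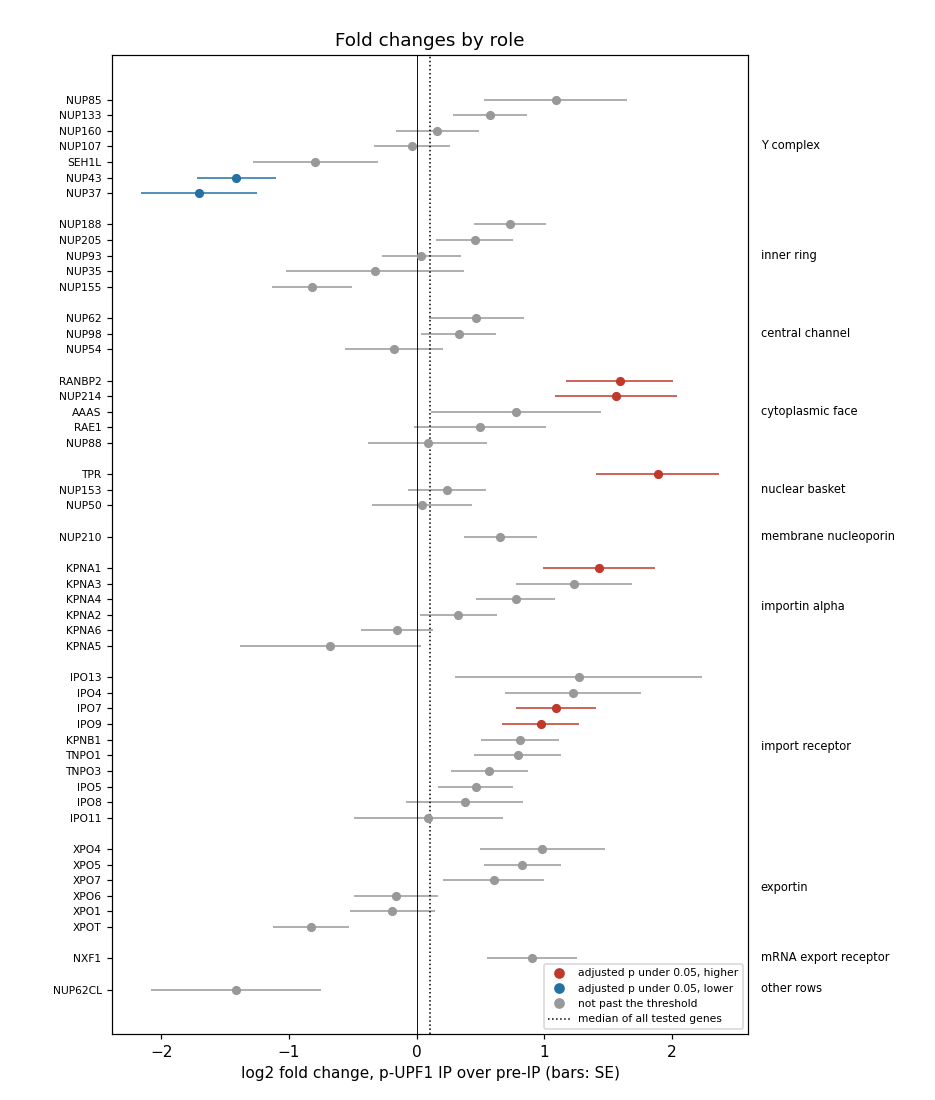
Log2 fold change of IP over pre-IP for the 48 tested members by role, with bars for the SE. Red marks the 6 that rose, blue the 2 that fell, grey the rest, and the dotted line is the median of all tested genes (0.10). All 10 import receptors lie above 0, as do 4339 of all 8070 tested genes. The 7 Y complex subunits that the symbol rule takes run from -1.71 to 1.09.

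Import receptors of the importin beta family all had positive log2 fold changes, from 0.09 to 1.27, with a median of 0.80, as had 4339 of all 8070 tested genes. Of the 10, 2 rose, against 8.81% of all tested genes and 9.17% of protein-coding ones. IPO7, a receptor for ribosomal proteins and histones, had 186, 96.7 and 100.2 CPM in pre-IP and 288, 294 and 251 in IP. It rose by 1.10 (SE 0.31, adjusted p = 0.0210) with no overlap. An intron of IPO7 holds the snoRNA gene SNORA23, counted under its own symbol with 20427 counts in pre-IP and 34802 in IP, far above the 230 and 2199 of IPO7. Whether reads of that snoRNA or of its precursor entered the IPO7 counts was not tested. IPO9, a histone import receptor, had 139, 115 and 76.0 CPM against 202, 225 and 223. It rose by 0.97 (SE 0.30, adjusted p = 0.0309). KPNB1, importin beta itself and the most counted member, had the most even values in pre-IP, 255, 251 and 259 CPM, against 409, 416 and 517. Its log2 fold change of 0.81 missed the threshold (SE 0.30, adjusted p = 0.0685), although the groups did not overlap. It passed with DESeq2 (0.90, adjusted p = 0.00197) and with small structured RNAs left out (0.79, adjusted p = 0.0439). TNPO1, the transportin of hnRNP proteins, had 183, 57.3 and 128 CPM against 251, 215 and 192 (0.79, adjusted p = 0.114). It passed with no filter (0.96, adjusted p = 0.0427) and without pre-IP replicate 1 (1.20, adjusted p = 0.0395). TNPO3, a receptor of SR proteins, was at 0.57 (adjusted p = 0.192). IPO5 was at 0.46 and IPO8 at 0.38. IPO4 and IPO13 had large log2 fold changes with wide errors, 1.23 (SE 0.53) and 1.27 (SE 0.97). IPO4 passed with no filter (1.40, adjusted p = 0.0374) and without pre-IP replicate 4 (1.91, adjusted p = 0.0209). IPO13 had 1, 9 and 0 counts in pre-IP, and without pre-IP replicate 4 its value was 4.61 (adjusted p = 0.0120). That fit has only the 1 and 0 counts of pre-IP replicates 1 and 7 to compare with, so the size of its fold is not reliable.

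Importin alpha adaptors, which bind the classical nuclear localization signal and hand it to KPNB1, differed among themselves. KPNA1 had 10.2, 43.0 and 24.2 CPM in pre-IP and 64.4, 63.3 and 58.2 in IP. It rose by 1.43 (SE 0.44, adjusted p = 0.0302) on 34 counts in pre-IP, with no overlap between groups. KPNA2, the most counted adaptor, had 173, 294 and 230 CPM against 304, 259 and 301, which overlap (0.33, adjusted p = 0.481), and 34.7% of its 30-base words recur in other annotated genes. KPNA3 (1.24, adjusted p = 0.0636) and KPNA4 (0.78, adjusted p = 0.0851) had IP libraries above every pre-IP library without passing the test. Without pre-IP replicate 7 both passed (1.48, adjusted p = 0.0491, and 1.07, adjusted p = 0.0401), and KPNA3 did so with no filter (1.41, adjusted p = 0.0407). An intron of KPNA4 holds the small RNA gene SCARNA7, with 2216 counts in pre-IP and 701 in IP. Whether its reads entered the KPNA4 counts was not tested. KPNA6 was at -0.15 (adjusted p = 0.747), and KPNA5, the least counted of the tested adaptors, had the lowest log2 fold change of the class, -0.68. KPNA7 had 0 counts in all 6 libraries.

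Of the 6 exportins 0 passed the test with edgeR and TMM, against 19.7% of all tested genes, and with so few genes this says little of the class. XPO1, the receptor for leucine-rich export signals, had 207, 78.8 and 200 CPM in pre-IP and 165, 126 and 145 in IP, with overlapping groups (-0.19, adjusted p = 0.732). XPO5, which carries microRNA precursors, had 65.3, 100.3 and 82.9 CPM against 118, 150 and 165 (0.83, SE 0.30, adjusted p = 0.0609). XPOT, the exportin of tRNA, lay as far on the other side with 186, 147 and 171 CPM against 107, 64.8 and 114 (-0.83, SE 0.30, adjusted p = 0.0607). Neither pair of groups overlapped, and with library totals alone XPOT was at 0.74. XPO5 passed with DESeq2 (0.92, adjusted p = 0.0343), with no filter (1.004, 0.0409) and without pre-IP replicate 4 (1.01, 0.0369). XPOT passed with limma-voom (-0.88, adjusted p = 0.0356) and a minimum count of 30 (-0.92, 0.0279). XPO4 and XPO7 were at 0.99 and 0.60, neither past the threshold (adjusted p = 0.164 and 0.301), although XPO4 passed without pre-IP replicate 1 (1.94, adjusted p = 0.0230), and XPO6 had a log2 fold change of -0.16. NXF1, the bulk mRNA export receptor, is known to make an additional mRNA that keeps an intron. It had 40.9, 57.3 and 82.9 CPM in pre-IP and 117, 144 and 74.9 in IP, which overlap through IP replicate 9 (0.90, SE 0.35, adjusted p = 0.0799). Without pre-IP replicate 7 NXF1 passed (1.27, adjusted p = 0.0342), as it did with no filter (1.08, adjusted p = 0.0303). Its partner NXT1 had too few counts for the test, with 6, 10 and 2 in pre-IP and 28, 6 and 6 in IP.

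The other 5 untested rows held almost nothing. The antisense row IPO9-AS1 had 0 counts in pre-IP and 10 in IP, and NUP50-AS1 had 0 and 9, too few for a fold on the TMM scale. NUP210L, a paralog of NUP210, had 0 and 1 counts, and the readthrough IPO11-LRRC70 had 0 in all libraries, as did KPNA7. NUP62CL, a short relative of NUP62, was tested and had 19.2, 25.1 and 10.4 CPM in pre-IP and 5.80, 6.19 and 7.83 in IP (-1.42, SE 0.67, adjusted p = 0.144).

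Levels can be set side by side between genes only per length of transcript. In IP, KPNA2 had the highest level per kilobase (117 CPM per kb of reference transcript), followed by KPNB1 (72.9), NUP205 (47.7), IPO5 (47.2) and IPO7 (44.8). In pre-IP KPNA2 was also first (94.5), with NUP43 (45.0) and KPNB1 (41.5) behind it. TPR went from rank 34 to rank 7 of 48 in this order and RANBP2 from 42 to 27, whereas NUP43 went from 2 to 20 and NUP37 from 14 to 44. These ranks carry no test.

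Transcript length, which the choice of members did not use, ran along with the fold changes. The members are long: their median reference transcript was 5279 bases, with 23 exons, against 3498 bases and 11 exons for tested protein-coding genes. All 6 members that rose were among the 24 above that median, and both that fell were among the other 24. The 24 longer members had a median log2 fold change of 0.69 and the 24 shorter ones 0.21. Tested protein-coding genes on the same sides of that length had medians of 0.59 and 0.00, and 18.4% of the longer ones rose while 9.83% of the shorter ones fell. Above 0 were 19 longer and 16 shorter members, against 1384 of 1894 longer and 2790 of 5575 shorter protein-coding genes. Log2 fold change and length had a Spearman correlation of 0.32 over the 48 members and of 0.35 over 7469 protein-coding genes, across genes that share the same 6 libraries. The 3′ UTR of the reference transcript was 2625.5 bases at the median for the 6 members that rose and 1105 for the other 42 tested, with IPO9 at 8240 and KPNA1 at 5036 but NUP214 at 1183. It was 1634 bases for protein-coding genes that rose and 1196 for all tested protein-coding genes.

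**Figure D3:**
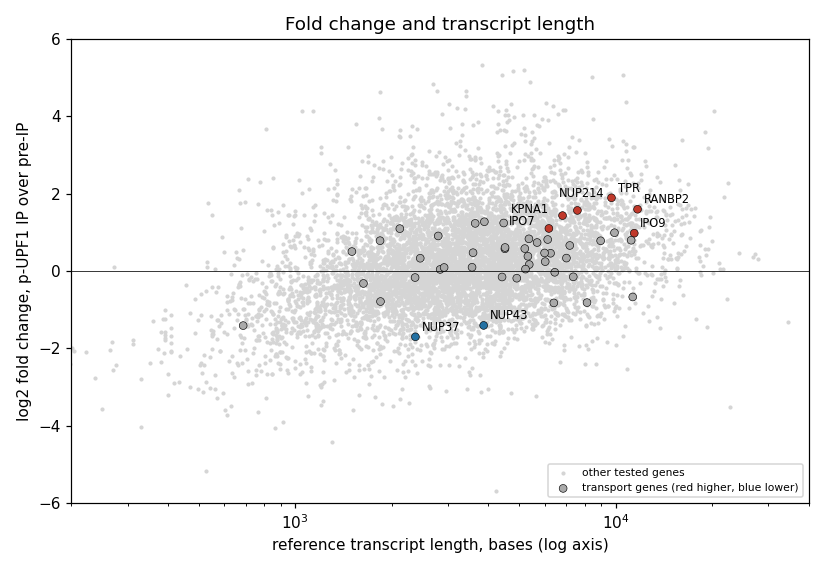
Log2 fold change of IP over pre-IP against the length of the reference transcript in bases (log axis), with members as large points (red rose, blue fell) and other tested genes in pale grey. The axes leave out 271 of the 7796 genes with a length, which lie beyond their ranges, and the 6 red points lie between 6191 and 11711 bases.

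When the trend of counts with transcript length was removed within each library, 0 members rose and 4 fell, against 6.17% and 6.52% of the 7796 genes with a length. The log2 fold change of TPR was then 1.27 (adjusted p = 0.0663), of NUP214 1.04 (0.168), of KPNA1 0.94 (0.188), of RANBP2 0.89 (0.137), of IPO7 0.67 (0.129) and of IPO9 0.28 (0.556). NUP43 (-1.65, adjusted p = 0.00278) and NUP37 (-1.69, adjusted p = 0.0216) fell on that scale too, joined by NUP155 (-1.41, adjusted p = 0.00997) and XPOT (-1.28, adjusted p = 0.00898), both of them long transcripts. Leaving out 1 library also ended calls, and what ended each was not tested. IP replicate 3 held the highest IP value of TPR (402 CPM, against 221 and 268), RANBP2 (208, against 119 and 119) and KPNA1 (64.4, against 63.3 and 58.2). For NUP214, IPO7 and IPO9 it was IP replicate 6. Without IP replicate 3, the deepest library, 0 members rose and 1 fell (NUP43), against 3.30% and 6.25% of all genes. The log2 fold changes of the 6 risers were then 1.02 to 1.62, with adjusted p from 0.0571 (TPR) to 0.119 (KPNA1). Without IP replicate 6, TPR and RANBP2 alone of the members rose, against 3.99% of all genes. In that fit NUP214 was at 1.29 (adjusted p = 0.172), KPNA1 at 1.38 (0.105), IPO7 at 1.05 (0.0704) and IPO9 at 0.94 (0.0893). Without IP replicate 9, KPNA1 (1.46, 0.0861) and IPO9 (0.97, 0.0814) missed the threshold. Without pre-IP replicate 1 KPNA1 missed it (0.97, 0.111) and TPR was at 3.26. IPO7 missed it without pre-IP replicate 4 (0.99, 0.0518), and NUP214 (1.29, 0.0747), IPO7 (0.96, 0.0783) and IPO9 (0.78, 0.109) without pre-IP replicate 7.

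**Figure D4:**
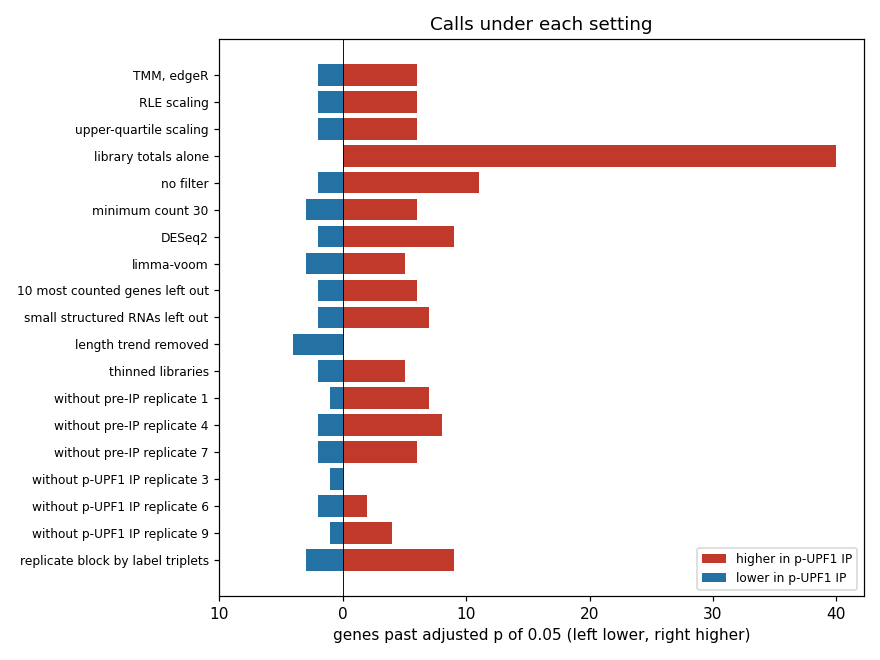
Number of members past an adjusted p of 0.05 under each setting, higher in IP to the right (red) and lower to the left (blue). The count of risers is 6 with TMM, 40 with library totals alone, and 0 with the length trend removed or without IP replicate 3.

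Genes of the same pathway that the symbol rule does not take were compared in 3 lists, to be read against the 8.81% of all tested genes that rose and the 10.9% that fell. Of 8 further nucleoporins, 0 passed the test (edgeR; 3 at an unadjusted p under 0.05), and SEC13, the most counted, was at -0.25. Of 12 genes of the Ran cycle and remaining receptors, 2 rose and 1 fell, with a median of -0.52. RANGAP1, the GTPase activator that sits on RANBP2, went from 62.5 ± 1.99 to 189 ± 30.9 CPM (n = 3) and rose by 1.60 (SE 0.30, adjusted p = 0.00134). TNPO2, a relative of TNPO1, rose by 1.67 (adjusted p = 0.0217). NUTF2, the small carrier that returns Ran to the nucleus, fell by 2.14 (SE 0.39, adjusted p = 0.00126), and RAN was at -0.75 (adjusted p = 0.0780). RAN passed as lower with DESeq2 (-0.65, adjusted p = 0.0498) and a minimum count of 30 (-0.83, 0.0321), but as higher with library totals alone (0.81, 0.0458). Of 18 tested genes of the TREX and TREX-2 mRNA export complexes, 3 rose and 2 fell: THOC2 (2.02, adjusted p = 0.00563), POLDIP3 (1.86, adjusted p = 0.0134) and ZC3H11A (1.69, adjusted p = 0.00207) rose, and ENY2 (-2.03, adjusted p = 0.00763) and SHFM1 (-1.62, adjusted p = 0.0321) fell. MCM3AP, the most counted TREX-2 gene, was at 0.33. With library totals alone, the 3 decreases of NUTF2, ENY2 and SHFM1 were no longer past the threshold (-0.64, -0.53 and -0.10). With the length trend removed ZC3H11A was at 0.96 (adjusted p = 0.0578) and TNPO2 at 1.34 (0.0738), and both missed the threshold. Without pre-IP replicate 1 or any 1 of the IP libraries, TNPO2 missed it at 1.28 to 1.75 (adjusted p from 0.0606 to 0.135), POLDIP3 at 1.53 to 1.87 (0.0517 to 0.0592) and SHFM1 at -1.75 to -1.26 (0.0959 to 0.147). ENY2 missed it without IP replicate 9 (-1.82, 0.0513). TNPO2 was at 2.71 without pre-IP replicate 7 and THOC2 at 3.03 without pre-IP replicate 1, both past the threshold.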

How the data were processed

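RNA from p-UPF1 immunoprecipitates and pre-IP material was sequenced. The authors deposited whole-number read counts per gene symbol, 1 column per library, not normalized. Named per the submitters' processing notes are featureCounts in Subread 1.5.0p3, STAR 2.5.2b, cutadapt 1.15 and hg19. For annotation, strand setting and multiply matching reads, nothing was given in the sources used here.

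Counts were filtered with filterByExpr (minimum count 10), scaled by TMM and tested with edgeR 4.0.16 (quasi-likelihood F-test, R 4.3.3), with Benjamini-Hochberg adjustment over 8070 genes at 0.05. SE is the log2 fold change divided by the square root of F. CPM are TMM-scaled. The fit was tested on simulated data. Libraries of a group differed well beyond counting noise. No molecular identifiers are described, so counts need not be independent molecules. Transcript properties came from GENCODE release 29, matched by symbol, and protein sequences were not used here. For length correction, a loess trend (span 0.5) entered as offsets. Alternatives were other scalings and filters, DESeq2 1.42.0, limma-voom (3.58.1), abundant genes or small RNAs left out, thinning to 600244 counts, a replicate block and each library left out.

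Members and lists were chosen with earlier results of these data known. Named genes were called members, the 2 most abundant of each role, NXF1 and, per pathway list, up to 3 calls and the most abundant gene. Others were named after their values were seen, to complete a class.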

Additional observations from a re-analysis of the deposited data

How the results depend on the processing

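The 6 increases and 2 decreases among the members were 6 and 2 with RLE scaling, upper-quartile scaling and the 10 most counted genes left out. In those fits, in that order, 9.49%, 9.53% and 9.01% of all genes rose. The genes that fell were 850 of 8070, 848 of 8070 and 854 of 7891. The number of risers, with the share of all genes that rose in the same fit, was 5 with limma-voom (8.07%) and in thinned libraries (9.27%), 7 with small structured RNAs left out (7.96%), 9 with DESeq2 (7.45%), 11 with no filter (7.32%), 40 with library totals alone (60.4%) and 0 with the length trend removed (6.17%). The number that fell was 3 with limma-voom (1031 of 8070 genes fell) and with a minimum count of 30 (800 of 4431). It was 4 with the length trend removed (6.52% of all genes) and 0 with library totals alone (1.93%). Leaving out 1 library at a time gave 0 to 8 risers and 1 to 2 that fell, while 3.30% to 9.03% of all genes rose. The genes that fell in those fits ranged from 518 of 8285 to 833 of 9323. Of the 6 risers, 3 kept their call without pre-IP replicate 7 (7.60% of all genes rose) and 2 without IP replicate 6 (3.99%). It was kept by 4 without IP replicate 9 (3.62%) and by 0 without IP replicate 3 (3.30%). NUP43 lost its call with library totals alone and in no other setting run. The members' median log2 fold change of 0.47 was 2.04 with library totals alone, 0.64 with no filter, 0.13 with the length trend removed and 0.42 to 0.53 with 1 library left out. Signs turned with library totals alone for KPNA6 (1.41), NUP43 (0.17), NUP62CL (0.14), XPO1 (1.32), XPOT (0.74), SEH1L (0.71), NUP107 (1.5004), NUP155 (0.78), XPO6 (1.43), NUP35 (1.14), NUP54 (1.36), KPNA5 (0.81), LBR (0.60), RAN (0.81), SEC13 (1.37) and TMPO (0.45), where all genes shift by the library scale. They turned with the length trend removed for NUP153 (-0.17), NUP205 (-0.0034), NUP98 (-0.17), NUP160 (-0.23), NUP50 (-0.30), NUP93 (-0.05), NUP88 (-0.03), IPO11 (-0.10), MCM3AP (-0.13) and SEC13 (0.19). With no filter KPNA6 was at 0.022, XPO6 at 0.016 and NUP107 at 0.14, with DESeq2 NUP107 was at 0.053, and with 1 library left out XPO1 ranged from -0.45 to 0.017, NUP107 from -0.12 to 0.071 and NUP160 from -0.14 to 0.48. NUP35, NUP50, NUP54, NUP88, NUP93, KPNA5, IPO11 and XPO6 also changed sign in at least 1 such fit. Of these genes, NUP43, LBR and TMPO had passed the threshold with TMM. The groups share no replicate number, so the numbers state no pairing. With a replicate block that takes 1 with 3, 4 with 6 and 7 with 9, 9 members rose and 3 fell. In that fit 9.67% of all tested genes rose and 876 of 8070 fell. Deviations within these pairs correlated at 0.09, 0.17 and 0.10, each the highest for its library. That is a hint from the data and not from the design. Low counts in pre-IP (24 of NUP214, 34 of KPNA1, 10 of IPO13) limit the precision of those folds.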

Other observations

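The nuclear lamina and envelope, which the pore is set in, also moved in both directions. Of 16 tested genes 1 rose and 2 fell (8.81% and 10.9% of all tested genes), with a median log2 fold change of 0.05. Above 0 were 8 of them and 4339 of all 8070 tested genes. SYNE2, a giant nesprin that ties the nuclear envelope to the cytoskeleton, went from 30.8 ± 18.1 to 119 ± 49.7 CPM (SD, n = 3) and rose by 1.90 (SE 0.43, edgeR adjusted p = 0.00519). SYNE2 missed the threshold once the length trend was removed (1.01, adjusted p = 0.0938) and without IP replicate 3 (1.503, adjusted p = 0.0522). TMPO, which encodes the lamina-associated LAP2 proteins, went from 314 ± 14.9 to 145 ± 7.72 CPM (n = 3) and fell by 1.12 (SE 0.28, edgeR adjusted p = 0.00947). LBR, the lamin B receptor, went from 184 ± 26.3 to 93.4 ± 6.28 CPM (n = 3) and fell by 0.97 (SE 0.28, edgeR adjusted p = 0.0216). LBR and TMPO turned positive with library totals alone, and both lost their call with no filter (-0.79, adjusted p = 0.121, and -0.94, 0.0522) and without IP replicate 3 (-0.92, 0.105, and -1.08, 0.0615). LBR also missed it when pre-IP replicate 4 (-0.82, 0.0505), IP replicate 6 (-1.01, 0.0612) or IP replicate 9 (-0.96, 0.0776) was left out.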
